A study of Mus musculus with 3 samples.

Results

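Expression of 10 genes of the unfolded protein response and the integrated stress response was described across the cell classes of aortas of mice in which human APOE2, APOE3 or APOE4 replaces the mouse Apoe gene. The genes were taken by symbol and were Atf4, Ddit3, Trib3, Chac1, Asns, Hspa5, Xbp1, Herpud1, Dnajb9 and Hsp90b1, which are 10 of the 32245 gene symbols measured. The mice were males on a C57BL/6J background that were 12 weeks old when a Western diet with 42% fat and 0.2% cholesterol was started and that ate it for 16 weeks. Whole aortas, from the arch to the iliac bifurcation, were dissociated with enzymes for 1 hour, and the cells of 6 APOE2 mice, 5 APOE3 mice and 7 APOE4 mice were pooled by genotype into 1 droplet library for each genotype. A library counts unique molecular identifiers (UMIs), each of which marks 1 captured transcript. With 1 library for each genotype there was no replicate, so genotype and library cannot be told apart, no difference was tested, and every interval given is a 95% interval of counting error alone.

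The unfolded protein response starts when misfolded proteins gather in the endoplasmic reticulum (ER), and it runs through the sensors PERK, IRE1 and ATF6. The integrated stress response is the arm in which PERK and other kinases phosphorylate the initiation factor eIF2α, which lowers protein synthesis as a whole while the transcription factor ATF4 is made at a higher rate. ATF4 turns on genes of amino acid supply and, under lasting stress, genes linked to cell death. Both responses have been described in smooth muscle cells, macrophages and fibroblasts of diseased arteries. Much of their control lies in protein phosphorylation, translation of Atf4 and splicing of Xbp1, none of which can be read from gene counts.

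In their promoters, target genes of these responses hold short motifs to which the responses' factors are known to bind, and the stretches below are shown so that the levels given further on can be read beside the motifs the genes share. In all, 4 motifs were searched on both strands in the 250 bases before the RefSeq start of each gene. The C/EBP-ATF response element (CARE), bound by ATF4, was searched as TGATGNAA, and the ER stress response element (ERSE), bound by ATF6 with NF-Y, as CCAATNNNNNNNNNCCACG. Its variant ERSE-II was searched as ATTGG and CCACG parted by 1 base, and the core of the unfolded protein response element (UPRE) as TGACGTG. Among all 32851 RefSeq promoter windows of mouse build GRCm38.p6, CARE stood in 3.45%, ERSE in 0.113%, ERSE-II in 0.0304% and the UPRE core in 1.65%. Of the 10 genes, 5 held at least 1 of the motifs. Capitals mark the motifs and lower case the bases around them, and bases that lie within the gene in the GENCODE vM21 annotation are left out or, for Asns and Hspa5, shown as 30 bases only.
Asns, CARE 23 to 16 bases before the start, chr6:7693214-7693243, minus strand: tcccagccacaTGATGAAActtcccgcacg
Chac1, CARE on the opposite strand 193 to 186 bases before the start, chr2:119350992-119351228, plus strand: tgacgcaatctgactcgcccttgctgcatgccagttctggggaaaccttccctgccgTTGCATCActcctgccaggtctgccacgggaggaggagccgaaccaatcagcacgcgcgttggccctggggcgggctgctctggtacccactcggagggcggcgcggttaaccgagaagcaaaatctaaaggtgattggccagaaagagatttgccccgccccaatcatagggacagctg
Herpud1, CARE on the opposite strand 112 to 105 bases and ERSE-II 52 to 42 bases before the start, chr8:94386179-94386428, plus strand: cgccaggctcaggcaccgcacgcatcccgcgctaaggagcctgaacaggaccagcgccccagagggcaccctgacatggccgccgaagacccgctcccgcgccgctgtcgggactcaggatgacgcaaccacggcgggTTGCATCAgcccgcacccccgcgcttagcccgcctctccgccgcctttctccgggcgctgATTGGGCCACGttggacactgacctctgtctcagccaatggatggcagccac
Hspa5, ERSE 65 to 47 bases before the start, chr2:34772020-34772049, plus strand: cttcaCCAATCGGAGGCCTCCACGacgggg
Hsp90b1, ERSE 212 to 194 bases and, on the opposite strand, 107 to 89 bases before the start, chr10:86705510-86705694, minus strand: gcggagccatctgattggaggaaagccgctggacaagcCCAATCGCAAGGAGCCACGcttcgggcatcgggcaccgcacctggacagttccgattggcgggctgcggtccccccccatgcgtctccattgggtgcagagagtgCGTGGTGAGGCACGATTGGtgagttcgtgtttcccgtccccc
Hspa5 also held the UPRE core, 157 to 151 bases before its start. The windows of Atf4, Ddit3, Trib3, Xbp1 and Dnajb9 held none of these letters, which speaks only of these 250 bases. For Dnajb9 all 250 bases lie within the gene in the GENCODE annotation, so no base before its GENCODE start was searched. Asns, Chac1 and Herpud1 thus each held a CARE, and Hspa5 and Hsp90b1 each held an ERSE.

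By the GENCODE vM21 annotation of GRCm38, all 10 are protein-coding genes. Atf4 lies on chromosome 15 from 80255184 to 80257541, Trib3 on chromosome 2 from 152337422 to 152344032, Chac1 on chromosome 2 from 119351229 to 119354381, and Asns on chromosome 6 from 7675169 to 7693254. Hspa5 lies on chromosome 2 from 34771970 to 34777547, Xbp1 on chromosome 11 from 5520659 to 5525893, and Dnajb9 on chromosome 12 from 44205559 to 44210326. Ddit3, on chromosome 10 from 127290774 to 127296288, overlaps another measured gene of the same symbol and strand, which held 0 UMIs, as well as Mars and Gm4189 on the opposite strand. Herpud1, on chromosome 8 from 94386438 to 94395377, overlaps Gm15890 on the opposite strand. Hsp90b1, on chromosome 10 from 86690209 to 86705509, overlaps Gm15344 on the same strand. Some reads from the stretches that Ddit3 and Hsp90b1 share with a gene on the same strand may not have been counted to them. Apart from Ddit3, Herpud1 and Hsp90b1, the other 7 genes overlap no measured gene.

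The filter on cells, at least 200 detected genes and under 20% mitochondrial UMIs, kept 11772 APOE2, 6737 APOE3 and 8248 APOE4 cells with median depths of 12047, 17618 and 13522 UMIs, and the libraries shared 14 to 27 barcodes in each pair. Clustering gave 21 clusters without use of the genes described here. The 11 clusters that kept smooth muscle markers were summed as smooth muscle (8812, 5055 and 6321 cells in APOE2, APOE3 and APOE4), cluster 3 was fibroblast-like (1223, 630 and 937 cells) with all 11 fibroblast markers raised, and cluster 10 was macrophage-like (559, 157 and 191 cells) with all 11 macrophage markers raised. Of the smooth muscle clusters, clusters 8 and 12 were shallow and carried no name of their own. Of the 10 genes, Hspa5 gave the most UMIs over all cells with 271833, Hsp90b1 gave 214695, and Trib3 and Chac1 gave 580 and 554, so the last 2 have much wider intervals. The mouse Apoe gene, which all 3 genotypes lack, was listed at 191, 200 and 181 CPM over all cells of APOE2, APOE3 and APOE4, and reads were counted against the mouse genome alone, so this checks neither the replacement nor the isoform. Levels are given in CPM, the UMIs of a gene summed over the cells of a class and scaled to the total UMIs of those cells.

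Atf4, the transcription factor of the integrated stress response, was highest in APOE4 in the smooth muscle, fibroblast and macrophage classes. In smooth muscle it stood at 103 CPM in APOE2 (interval 101 to 104), 112 in APOE3 (110 to 114) and 157 in APOE4 (155 to 160). APOE4 was above APOE3 by 0.49 on the log2 scale (0.46 to 0.53) and above APOE2 by 0.61 (0.58 to 0.65), while APOE2 was 0.12 below APOE3. The fibroblast levels were 117, 115 and 155 CPM, and the APOE4 level relative to APOE3 was 0.42 in log2 (0.30 to 0.55). In macrophages the levels were 139, 133 and 168 CPM. The macrophage log2 ratio of APOE2 to APOE3 was 0.05 with an interval from -0.18 to 0.29, which holds 0, and that of APOE4 to APOE3 was 0.33 (0.07 to 0.60).

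Ddit3, which encodes the ATF4-induced factor CHOP that is linked to cell death, had the same order of APOE4 above the other libraries in smooth muscle and fibroblasts. Its smooth muscle levels were 60.0 CPM in APOE2, 54.1 in APOE3 and 76.2 in APOE4, and APOE4 exceeded APOE3 by 0.49 (0.44 to 0.54) in log2. Its fibroblast levels were 64.7, 62.7 and 79.7 CPM, where APOE4 exceeded APOE3 by 0.35 (0.18 to 0.51) in log2. In macrophages the levels of 49.8, 55.2 and 55.2 CPM had overlapping intervals, and the difference of APOE4 to APOE3 could lie anywhere from -0.44 to 0.44 on the log2 scale.

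Asns, the synthetase that makes asparagine from aspartate and a standard readout of ATF4, showed the widest difference of the 10 genes. In smooth muscle it was at 2.09 CPM in APOE2 (266 UMIs, interval 1.85 to 2.36), 2.14 in APOE3 (218 UMIs, 1.87 to 2.45) and 12.7 in APOE4 (1353 UMIs, 12.0 to 13.4). The APOE4 level was 5.92-fold that of APOE3, a log2 ratio of 2.57 (2.36 to 2.78), and 6.07-fold that of APOE2, while APOE2 and APOE3 overlapped. The Asns UMIs lay in 214 cells of APOE2 with at most 5 in a cell, in 144 of APOE3 with at most 21, and in 1115 of APOE4 with at most 5. After every cell was thinned to 3000 UMIs, 0.529% of APOE2, 0.542% of APOE3 and 2.93% of APOE4 smooth muscle cells had an Asns UMI, with intervals of 0.381 to 0.714, 0.354 to 0.793 and 2.52 to 3.39%. Without thinning the shares were 2.43, 2.85 and 17.6%, at median depths of 13038, 19158 and 14916 UMIs. No cell class was without Asns UMIs in all 3 libraries, so none could set a background. T and B lymphocytes of APOE2 held 0 Asns UMIs, which allows up to 3.35 and 9.52 CPM at 3 counts. Those of APOE4 held 5 and 6 UMIs, at 5.68 CPM (interval 1.85 to 13.3) and 4.43 (1.63 to 9.65).

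Fibroblasts had another pattern for Asns. Here APOE2 at 11.7 CPM (169 UMIs, interval 10.0 to 13.6) and APOE4 at 9.41 (93 UMIs, 7.60 to 11.5) were above APOE3 at 2.75 (21 UMIs, 1.70 to 4.21). The log2 ratio of APOE4 to APOE2 was -0.31 (-0.69 to 0.06), which holds 0. After thinning to 3000 UMIs, 2.20% of APOE2, 0.804% of APOE3 and 2.71% of APOE4 fibroblasts had an Asns UMI. On the log2 scale APOE2 relative to APOE3 stood at 2.09 (1.43 to 2.82) in fibroblasts and -0.04 (-0.30 to 0.23) in smooth muscle, so the intervals of the classes lay apart. The ratio of APOE4 to APOE3 was 1.77 (1.08 to 2.53) in fibroblasts, whose interval overlaps that of smooth muscle. At clustering resolution 1.6, where 4 clusters made up the fibroblast class and 1 of them held 247 APOE2, 33 APOE3 and 34 APOE4 cells, these fibroblast ratios were lower, at 1.13 for APOE2 to APOE3 and 1.11 for APOE4 to APOE3. Erythroid markers in the fibroblast class summed to 365 CPM in APOE2, 10.9 in APOE3 and 343 in APOE4. Of the 8 markers 1, 2 and 0 were at 0, and their part in the Asns levels was not tested. Cluster 18, a small cluster with 7 raised fibroblast markers that stayed unnamed, had 8.22, 8.27 and 7.67 CPM from 8, 8 and 7 UMIs, and macrophages had 16, 1 and 9 UMIs, too few for a ratio.

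Trib3, a pseudokinase that ATF4 and CHOP induce, was lowest in APOE4 in smooth muscle, where Asns was highest. It stood at 1.12 CPM in APOE2 (143 UMIs), 0.953 in APOE3 (97 UMIs) and 0.629 in APOE4 (67 UMIs), and the log2 ratio of APOE4 to APOE2 was -0.84 (-1.28 to -0.41). The ratio of APOE4 to APOE3 was -0.60 (-1.07 to -0.14), which was 1.5-fold or more in 8 of 16 alternative settings and less in the others. Of the 97 APOE3 UMIs, 14 lay in 1 cell. Trib3 was lower in APOE4 than in APOE3 in 8 of 11 smooth muscle clusters and higher in 3, and its interval lay below 0 in 1. In fibroblasts Trib3 was at 6.02, 3.80 and 3.44 CPM from 87, 29 and 34 UMIs. The levels were thus higher in fibroblasts than in smooth muscle in all 3 libraries, and no interval of the classes overlapped within a library.

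Chac1, an enzyme that breaks down glutathione and a late ATF4 target, was highest in APOE2 smooth muscle. The levels were 1.76 CPM in APOE2 (224 UMIs, interval 1.54 to 2.01), 0.953 in APOE3 (97 UMIs, 0.773 to 1.16) and 0.751 in APOE4 (80 UMIs, 0.595 to 0.934). APOE2 was above APOE3 by 0.88 on the log2 scale (0.53 to 1.24), and APOE4 was below APOE2 by a log2 ratio of -1.23 (-1.62 to -0.85). Without cluster 2, in which APOE2 had 67 Chac1 UMIs, APOE3 5 and APOE4 2, the ratio of APOE2 to APOE3 was 0.58, short of 1.5-fold. Of the genes with a CARE, Asns and Herpud1 were highest in APOE4 and Chac1 in APOE2 in this class. Fibroblasts held 16, 3 and 7 Chac1 UMIs and macrophages 3, 0 and 1, where the 0 allows up to 2.02 CPM at 3 counts.

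**Figure D1:**
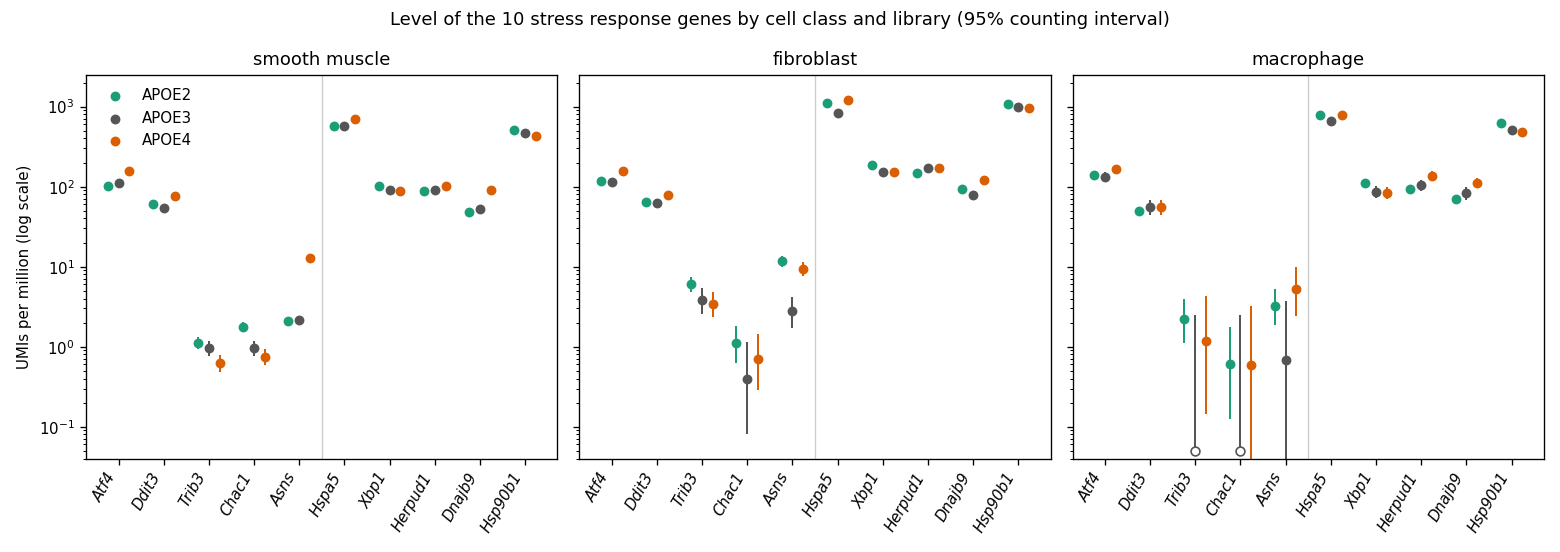
Level of each gene (x axis) in CPM on a log scale (y axis) in smooth muscle, fibroblasts and macrophages, with 1 point for each library, bars for the 95% counting interval and open circles for 0 UMIs. A grey line parts the genes of the integrated stress response on the left from those of the ER on the right, and Asns of APOE4 smooth muscle stands at 12.7 against 2.09 and 2.14 in the other libraries.

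Among the genes of the ER, Dnajb9, a co-chaperone of BiP that IRE1 signalling through XBP1 is known to induce, was highest in APOE4 in the smooth muscle, fibroblast and macrophage classes. Its smooth muscle levels were 47.7 CPM in APOE2 (interval 46.5 to 49.0), 52.4 in APOE3 (51.0 to 53.8) and 91.7 in APOE4 (89.9 to 93.6), and APOE4 was 1.75-fold APOE3, a log2 ratio of 0.81 (0.76 to 0.86). The fibroblast levels were 92.5, 78.5 and 120.0 CPM, where APOE4 exceeded APOE3 by 0.61 (0.47 to 0.76) in log2. The macrophage levels were 69.9, 82.2 and 111 CPM, and APOE4 was above APOE3 by 0.43 (0.10 to 0.77) and above APOE2 by 0.67 (0.40 to 0.93) in log2. After thinning, 12.8% of APOE2, 13.7% of APOE3 and 22.4% of APOE4 smooth muscle cells had a Dnajb9 UMI, and without thinning 41, 53.4 and 63.2%.

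Hspa5 encodes BiP, the main chaperone of the ER, and Hsp90b1 encodes GRP94, the HSP90 of the ER. Hspa5 in smooth muscle was level between APOE2 and APOE3 at 579 and 576 CPM and reached 711 CPM in APOE4, which was 0.30 (0.29 to 0.32) above APOE3 in log2. In fibroblasts it was at 1095 CPM in APOE2, 841 in APOE3 and 1215 in APOE4, and in macrophages at 795, 654 and 785 CPM, so there both APOE2 and APOE4 were above APOE3. Hsp90b1 had the reverse order in smooth muscle, with 508 CPM in APOE2, 471 in APOE3 and 428 in APOE4, and APOE4 relative to APOE3 was at -0.14 (-0.16 to -0.12) in log2. The difference of Hsp90b1 is close to the shift of the median gene between these libraries (-0.09), and relative to it the ratio of Hsp90b1 was -0.05. Both genes were higher in fibroblasts than in smooth muscle in each library, with fibroblast Hsp90b1 at 1093, 983 and 969 CPM. So were Herpud1 and, among the genes without a motif in the bases searched, Dnajb9, Xbp1 and Trib3. Ddit3 was slightly higher in the fibroblast cluster in each library. With cells assigned by their own markers, Ddit3 was instead at 58.6, 54.1 and 71.2 CPM in fibroblasts and 60.6, 54.2 and 75.9 in smooth muscle.

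Xbp1, the transcription factor whose transcript IRE1 splices, was highest in APOE2 in the 3 classes. It stood at 101, 90.9 and 88.4 CPM in smooth muscle, at 185, 151 and 154 in fibroblasts, and at 111, 86.9 and 83.9 in macrophages. The APOE2 level relative to APOE3 was 0.15 (0.11 to 0.19) in log2, 0.29 (0.19 to 0.39) and 0.35 (0.07 to 0.64) in that order, while that of APOE4 to APOE3 was -0.04, 0.03 and -0.05. Herpud1, a membrane protein of ER-associated degradation, differed little in smooth muscle, with 89.3, 91.9 and 101 CPM. Its widest difference was in macrophages, with 92.6 CPM in APOE2, 104 in APOE3 and 136 in APOE4, a log2 ratio of APOE4 to APOE2 of 0.56 (0.32 to 0.79).

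**Figure D2:**
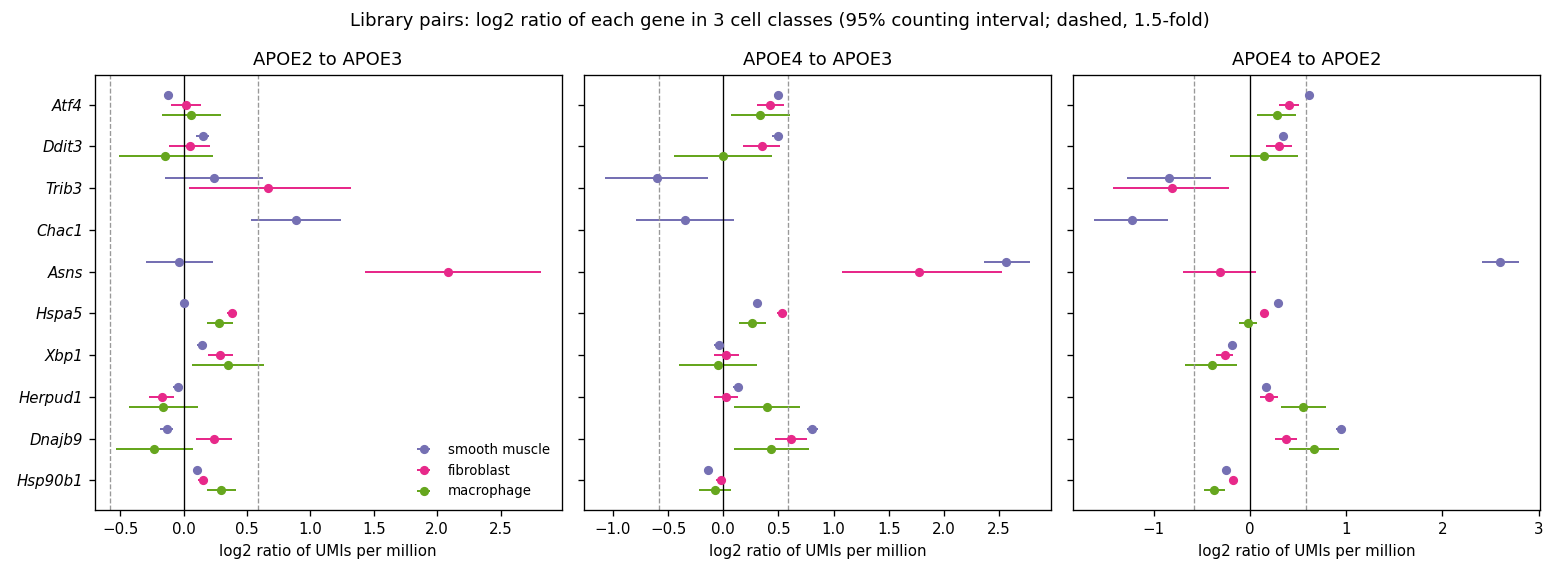
Log2 ratio of the level (x axis) of each gene (y axis) for APOE2 to APOE3, APOE4 to APOE3 and APOE4 to APOE2, with 1 point for each cell class, bars for the 95% counting interval and dashed lines at 1.5-fold. Genes under 100 UMIs in the pair have no point, and Asns of smooth muscle lies at 2.57 and 2.60 in the pairs with APOE4.

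A gene was counted as past 1.5-fold where it had at least 100 UMIs in both libraries together. In smooth muscle all 10 genes had enough UMIs. For APOE4 to APOE3, 2 of 10 were at least 1.5-fold higher (Asns and Dnajb9) beside 6.37% of 13737 genes tested, and 1 was lower (Trib3) beside 2.85%. For APOE4 to APOE2, 3 were higher (Asns, Dnajb9 and Atf4) beside 6.05% of all genes and 2 were lower (Chac1 and Trib3) beside 8.79%. For APOE2 to APOE3, Chac1 alone was higher beside 7.49%, and none was lower beside 2.56%. These pairs share libraries, so the counts are not independent of each other. The median gene was shifted by 0.04 in APOE2 to APOE3, -0.09 in APOE4 to APOE3 and -0.11 in APOE4 to APOE2, and relative to it the ratio of Atf4 for APOE4 to APOE2 was 0.73 and that of Trib3 for APOE4 to APOE3 was -0.51, which is short of 1.5-fold.

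In fibroblasts 9, 8 and 9 genes had enough UMIs in the pairs of APOE2 to APOE3, APOE4 to APOE3 and APOE4 to APOE2. Asns and Trib3 were past 1.5-fold higher in APOE2 to APOE3, beside 4.48% of all genes, and 0 were lower beside 4.81%. Asns and Dnajb9 were higher in APOE4 to APOE3 beside 3.99%, with 0 lower beside 3.42%. In APOE4 to APOE2, 0 were higher beside 5.25% and Trib3 was lower beside 6.17%. The fibroblast ratio of Trib3 for APOE2 to APOE3, 0.66 (0.04 to 1.32), was short of 1.5-fold in 5 of 16 alternative settings. With cells assigned by their own markers it was 0.04, from 4.90 CPM in APOE2 and 4.76 in APOE3.

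In macrophages 7 genes had enough UMIs, since Trib3, Chac1 and Asns were too rare. None was past 1.5-fold in APOE2 to APOE3 (7.06% of all genes higher and 7.42% lower) or in APOE4 to APOE3 (6.95% higher and 5.8% lower). Dnajb9 was the 1 gene higher in APOE4 to APOE2, beside 7.54%, and 0 were lower beside 7.99%. Smooth muscle markers in the macrophage class summed to 9741 CPM in APOE2, 20565 in APOE3 and 15722 in APOE4, none of the 10 markers was at 0, and their part in the macrophage ratios was not tested.

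Within the 11 smooth muscle clusters, the difference of APOE4 to APOE3 had the same sign everywhere for 6 genes. Atf4, Ddit3, Asns, Hspa5 and Dnajb9 were higher in APOE4 in 11 of 11 clusters and Hsp90b1 was lower in 11 of 11. The interval of the cluster excluded 0 in 11 clusters for Atf4 and Hspa5 and in 10 for Ddit3, Asns, Dnajb9 and Hsp90b1. These ratios were not scaled by the median gene, whose shift of -0.09 over the class left Hsp90b1 at -0.05. Xbp1 was higher in APOE2 than in APOE3 in 11 of 11 clusters, and its interval excluded 0 in 5. Chac1 was lower in APOE4 than in APOE2 in 11 of 11 clusters, and its interval excluded 0 in 4. All clusters of a library come from the same droplets, so the clusters are not replicates. The share of all genes with the same sign in every cluster was not computed, so these counts do not set the genes apart.

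Asns of APOE4 was at 9.91 CPM (interval 7.95 to 12.2) in cluster 2, its lowest cluster, with a median of 11.5 over the 11 clusters. Its highest level was 25.5 in the shallow cluster 12, which held 29 Asns UMIs over the 3 libraries together. In APOE2 the range of Asns was 0.878 to 5.28 CPM and in APOE3 0.673 to 8.15 CPM. The lowest APOE4 level was thus above the highest of either other library, though its interval holds the 8.15 CPM of APOE3. Cluster 9, led by Spp1, Vcam1 and Lcn2, was the highest for Asns in both APOE2 and APOE3. There the log2 ratio of APOE4 to APOE3 was the smallest, at 0.49.

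Summed over the libraries, Atf4 ranged 2.74-fold and Dnajb9 2.49-fold from the lowest to the highest cluster. Cluster 1, led by Csrnp1, Gadd45b, Irf1 and Dnajb1, all of which are known to respond quickly to stress or cytokines, had the highest Atf4 in every library, with 174 CPM in APOE2, 192 in APOE3 and 227 in APOE4. Cluster 7 had the lowest Atf4 in APOE3 and APOE4, at 63.8 and 78.9 CPM. Dnajb9 in cluster 1 was at 71.1, 89.5 and 131 CPM. This cluster held 10.7% of APOE2, 15.9% of APOE3 and 21% of APOE4 smooth muscle cells. Without it the APOE4 to APOE3 ratios of Asns and Dnajb9 stayed past 1.5-fold, as they did in all 16 alternative settings. The ratio of Atf4 for APOE4 to APOE2 was short of 1.5-fold without cluster 1, and past it in 14 of the 16 settings.

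Hspa5 and Hsp90b1 were highest in cluster 13 in each library, a cluster led by Adamtsl1 and Fgf12. Hspa5 there was at 870, 814 and 988 CPM and Hsp90b1 at 857, 947 and 694 CPM. The same cluster had the highest Xbp1 and Herpud1 when the libraries were summed, at 112 and 108 CPM. The lowest Hspa5 was in cluster 12 in APOE2 and APOE3, at 438 and 392 CPM, and in cluster 7 in APOE4, at 538 CPM.

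**Figure D3:**
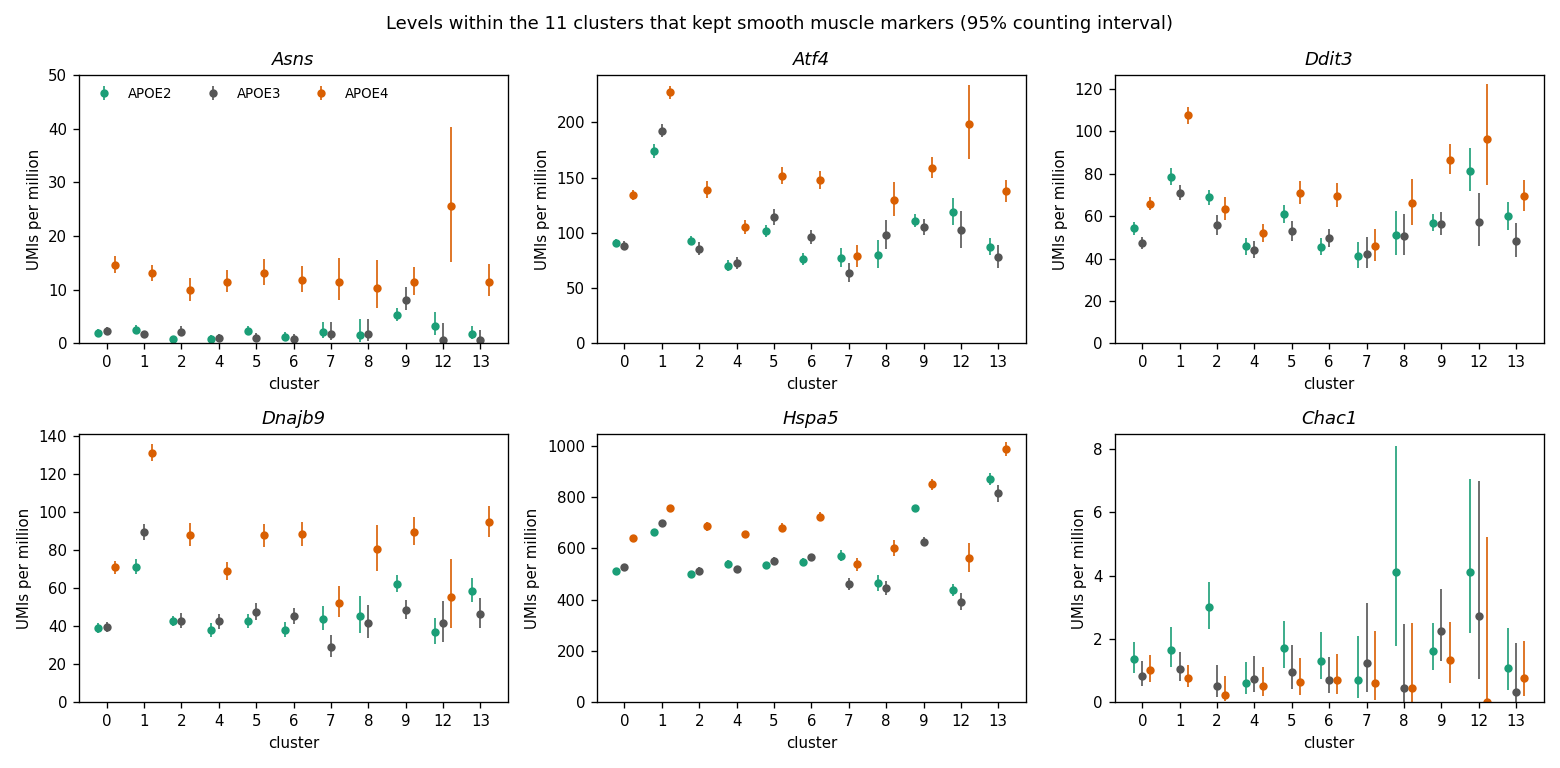
Level in CPM (y axis, linear from 0) of 6 of the genes in each of the 11 smooth muscle clusters (x axis), with 1 point for each library and bars for the 95% counting interval. APOE4 points of Asns lie above those of both other libraries in every cluster, and Atf4, Ddit3 and Dnajb9 peak in cluster 1 in APOE4.

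Across the 33 points of 11 clusters in 3 libraries, the patterns of the genes were compared by the Pearson correlation of log2(CPM + 1), which is a description because the points share libraries and depth. Atf4 ran most closely with Ddit3 among the 10 genes (r = 0.90), then with Dnajb9 (0.81), and its correlation with Hsp90b1 was -0.39. Asns correlated at 0.69 with Dnajb9 and at 0.63 with Atf4 but at -0.35 with Chac1. Outside the pathway lists, the gene most like Atf4 was Snhg1 (0.97), most like Asns was Anxa4 (0.91), most like Dnajb9 was Srsf2 (0.96) followed by Klf4 (0.93), and most like Hsp90b1 was Prrx1 (0.97). For Hspa5 it was Sox9 (0.89), for Xbp1 Anxa5 (0.90), for Ddit3 Tuba4a (0.89) and for Herpud1 Tceal8 (0.85). The closest genes to Trib3 and Chac1 were Scd1 (0.75) and Cyb561 (0.78), at levels where sampling noise weighs most.

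Some of the genes had their highest levels outside the 3 main classes. Chac1 reached 181 CPM in the APOE2 neutrophils of cluster 20 (interval 142 to 228) beside 1.76 CPM in smooth muscle of the same library. These 72 UMIs came from 22 of 79 cells with at most 13 in a cell, and they were 20.6% of all Chac1 UMIs of the APOE2 library from 0.671% of its cells. With cells assigned by their own markers the same 72 UMIs fell in 101 cells at 44.3 CPM, so the level depends on which cells are counted. APOE3 and APOE4 had 10 and 7 neutrophils with 1 and 2 Chac1 UMIs, too few to compare. Ddit3 and Atf4 of APOE2 neutrophils were at 148 and 191 CPM in the cluster and at 77.0 and 112 CPM by own markers.

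Trib3 in endothelial cells was at 16.5 CPM in APOE2 (21 UMIs in 14 of 114 cells, interval 10.2 to 25.2), and at 7.61 CPM with cells assigned by their own markers (36 UMIs in 167 cells). APOE3 and APOE4 had 12 and 19 endothelial cells with 5 and 1 Trib3 UMIs. The unnamed cluster 18 had 9.25 CPM of Trib3 in APOE2 (interval 4.23 to 17.6, which overlaps that of endothelial cells), 10.3 in APOE3 and 11 in APOE4, from 9, 10 and 10 UMIs. B lymphocytes of APOE4 had 215 CPM of Atf4 (interval 191 to 241) against 171 (129 to 224) in the 43 B lymphocytes of APOE2, with overlapping intervals. T lymphocytes had 81.5 and 117 CPM of Atf4 in APOE2 and APOE4. Dnajb9 was higher in APOE4 than in APOE2 in both lymphocyte classes, by 1.09 (0.46 to 1.75) in T and 1.30 (0.37 to 2.41) in B lymphocytes on the log2 scale. Hsp90b1 was lower in APOE4 in both, by a log2 ratio of -0.44 (-0.68 to -0.20) in T and -0.32 (-0.60 to -0.03) in B lymphocytes. Hspa5 was lower in T lymphocytes, at -0.47 (-0.70 to -0.25), and Xbp1 in B lymphocytes, at -1.02 (-1.62 to -0.40). The Xbp1 levels in B lymphocytes were 111 CPM in APOE2 (35 UMIs) and 54.7 in APOE4 (74 UMIs). With cells assigned by their own markers they were closer, at 84.3 CPM (17 UMIs in 30 cells) and 59.8 (87 UMIs). Neither lymphocyte class had 30 cells in APOE3, so no ratio to APOE3 was formed.

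**Figure D4:**
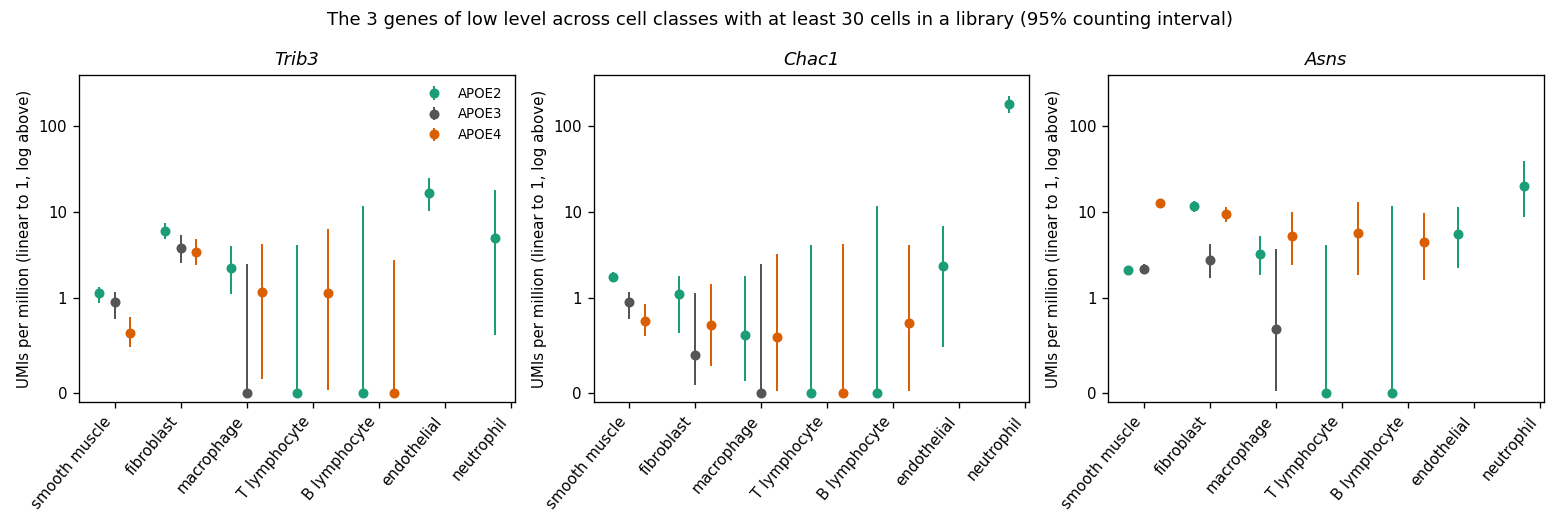
Level in CPM (y axis, linear to 1 and log above) of Trib3, Chac1 and Asns in 7 cell classes (x axis), with 1 point for each library with at least 30 cells and bars for the 95% counting interval. Chac1 of APOE2 neutrophils stands at 181. Asns is highest in APOE2 neutrophils at 20.1, from 8 UMIs (interval 8.68 to 39.6). It is also high in APOE4 smooth muscle and in APOE2 and APOE4 fibroblasts.

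The genes around the 10 in the pathway were read from 8 lists. Of 13 sensors and eIF2α regulators, 2 were at least 1.5-fold higher in APOE4 than in APOE3 smooth muscle, beside 6.37% of all genes. They were Ern1, which encodes IRE1α, with 21.1 CPM in APOE2, 16.4 in APOE3 and 38.6 in APOE4, and Ppp1r15a, which encodes the eIF2α phosphatase subunit GADD34, with 114, 144 and 227 CPM. The other 11 were within 1.5-fold and the median of the list was -0.12, beside -0.09 over all genes. Of 24 other ATF4 targets with enough UMIs in APOE4 to APOE3, 6 were higher beside 6.37% of all genes and 0 were lower beside 2.85%. In APOE4 to APOE2, 5 of 25 were higher beside 6.05% and 4 were lower beside 8.79%. In APOE2 to APOE3, 3 of 25 were higher beside 7.49% and 0 were lower beside 2.56%. Gdf15, a secreted stress hormone, was at 18.5, 23.6 and 68.9 CPM, where APOE4 exceeded APOE3 by 1.54 (1.48 to 1.61) in log2. Slc7a11, the cystine transporter, was instead highest in APOE2, with 1.07 CPM against 0.226 in APOE3 and 0.225 in APOE4. The medians of these targets stayed near 0 at -0.04 for APOE4 to APOE3.

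The lists of amino acid charging, folding, degradation and translocation held few genes past 1.5-fold in smooth muscle. Over all genes the share was 2.56 to 8.79% in each direction of the 3 pairs. At such shares few genes would be expected in any list of 12 to 18 genes. None of the 12 tRNA synthetases passed 1.5-fold in any smooth muscle pair. Their members with the widest differences were Yars, with 16.2, 17.8 and 14.1 CPM, and Aars, with 17.7, 21.2 and 18.8 CPM. None of the other 18 ER chaperones passed 1.5-fold in APOE4 to APOE3, with a median of -0.06, and 1 was lower in APOE2 to APOE3. That gene was Txndc5, a disulfide isomerase, with 67.2 CPM in APOE2, 104 in APOE3 and 91.4 in APOE4, and Pdia4, another isomerase, was at 40.6, 60.7 and 50.4 CPM. In ER-associated degradation 0 of 14 genes passed, with Os9 at 49.5, 46.5 and 33.3 CPM and Edem3 at 24.7, 26.3 and 34.9 CPM, and in ER translocation 0 of 17 passed, with Sec61g at 444, 497 and 570 CPM and Sec62 at 283, 302 and 338 CPM.

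Cytosolic heat shock and immediate early genes are known to rise when tissue is dissociated as well as under stress. In smooth muscle 11 of 15 immediate early genes were at least 1.5-fold higher in APOE4 than in APOE3, with a median of 0.64, beside 6.37% of all genes. In fibroblasts 12 of 14 were, with a median of 1.04, beside 3.99%. Ier3 was at 184, 169 and 498 CPM and Socs3 at 63.6, 83.9 and 185 CPM in smooth muscle. Immediate early genes summed to 9692, 10977 and 17222 CPM in smooth muscle of APOE2, APOE3 and APOE4. The heat shock sum was 14075, 15886 and 17993 CPM with 0 of 12 genes past 1.5-fold in APOE4 to APOE3, and its members with the widest differences were Hspa1a, with 1450, 2133 and 2349 CPM, and Dnaja1, with 442, 450 and 627 CPM. Mitochondrial UMIs were 2.34, 1.68 and 2.90% of the smooth muscle total. These values stand beside the APOE4 levels of Atf4, Ddit3, Asns, Hspa5, Dnajb9, Gdf15, Ern1 and Ppp1r15a, and their part in them was not tested.

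In macrophages the immediate early sums were 12304, 16453 and 16757 CPM, and the heat shock sums were 18142, 24461 and 19942 CPM, the highest in APOE3. In fibroblasts the immediate early sums were 7076, 8056 and 15606 CPM. Their part in the levels of the 10 genes in these classes was not tested.

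**Figure D5:**
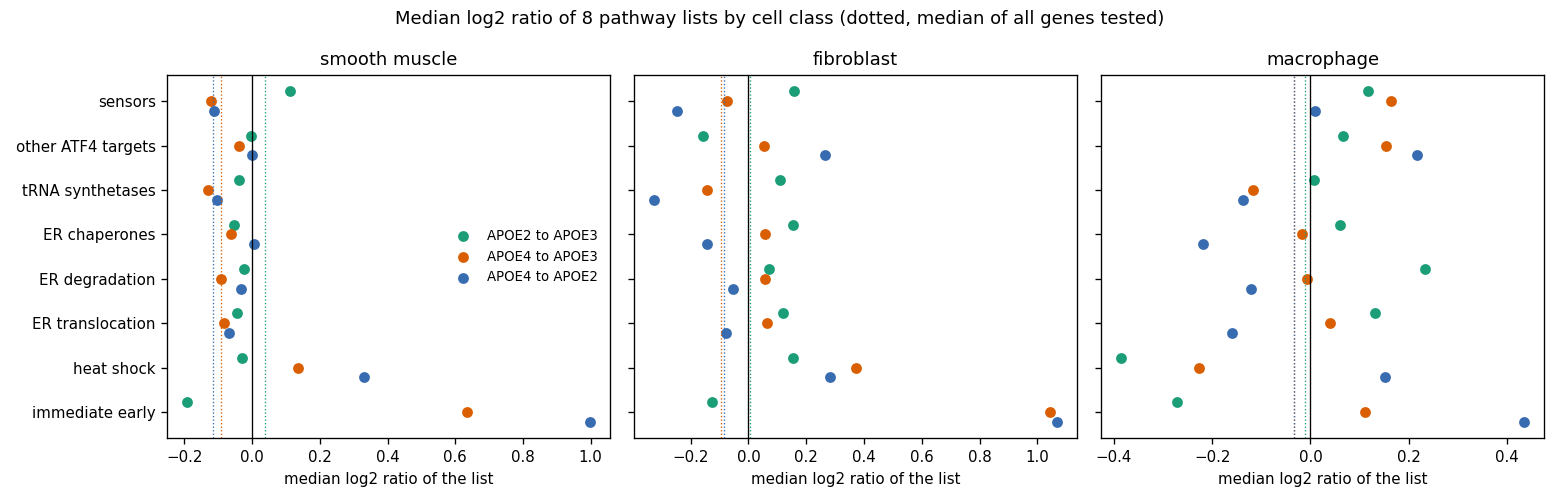
Median log2 ratio (x axis) of 8 pathway lists (y axis) in smooth muscle, fibroblasts and macrophages, with 1 point for each library pair and dotted lines at the median of all genes tested. The immediate early list of APOE4 to APOE3 stands at 0.64 in smooth muscle and 1.04 in fibroblasts, whereas ER chaperones stand at -0.06 and 0.06.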

How the data were processed

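Aortic cells of 3 pooled libraries, 1 each of APOE2, APOE3 and APOE4 mice, were analysed, with groups taken from the genotype labels. Reads were aligned by the authors to the mm10 genome in Cell Ranger (7.0.1 in the matrix headers), and the raw UMI counts of 32285 features per cell barcode were deposited as they were, not normalized. Kept cells held 168310501, 125105151 and 124926887 UMIs in APOE2, APOE3 and APOE4, so the main classes have narrow counting intervals and rare genes and classes have wide ones.

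Kept cells had at least 200 genes and mitochondrial UMIs under 20%. In R 4.3.3, libraries were normalized with sctransform 0.4.2 and joined in Seurat 5.3.0 with its canonical correlation method, using 30 components of 2947 features from which the pathway lists were taken out. Louvain clustering at resolution 0.8 gave 21 clusters. A cluster was named where at least 3 markers of a list were detected in 10% of its cells and raised 2-fold. That type also needed no fewer markers among the 10 leading genes than any other type, which left cluster 18 unnamed. Limits on depth applied as well. A cluster counted as smooth muscle where at least 8 of 10 markers kept 50% of their level in all cells and under 3 markers of another type were raised. Clusters 11, 14 and 15 kept the smooth muscle markers but had 3 or more raised markers of another type and were set apart as mixed, a rule set after the clusters were seen. Scrublet in scanpy 1.11.5 called under 0.1% of cells as doublets, which is too few for the caller to have worked, so doublets were kept.

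UMIs were summed by class and library in Python 3.11.15 with scipy 1.17.1, with exact Poisson intervals for CPM, exact conditional binomial intervals for ratios and Clopper-Pearson intervals for shares, all at 95% and for counting error only. No p-value was computed, since no genotype had a replicate. A count of 0 was read as up to 3 counts. The calculation of ratios and intervals was checked on simulated counts. There the interval held the true value for 95.5% of 13737 genes of APOE4 to APOE3 in smooth muscle, with 200 of 200 changed genes in the right direction. This concerns the calculation only and says nothing of the spread between mice or libraries. The intervals do not account for UMIs that gather in single cells, such as 21 Asns UMIs in 1 APOE3 smooth muscle cell. Named genes were all 10 members, the 2 genes with the widest smooth muscle ratio from each list among those with at least 100 UMIs, and the genes outside the lists with the highest correlation to each member among genes with a mean of at least 20 CPM. Ero1b and Fam46c matched no symbol. The members and lists were chosen with earlier results of these data known. Promoter sequences are from RefSeq (GRCm38.p6) and matched all 10 symbols. Alternatives were other clusterings, cell filters, scalings, class rules, folds and UMI minimums.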

Additional observations from a re-analysis of the deposited data

How the results depend on the processing

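No called ratio changed sign under any of 16 alternatives, and Asns and Dnajb9 in smooth muscle stayed past 1.5-fold for APOE4 in all of them, from 2.48 to 2.81 for Asns and from 0.78 to 0.90 for Dnajb9 against APOE3 on the log2 scale. Atf4 of APOE4 to APOE2 in smooth muscle stayed past 1.5-fold in 14 of 16 (0.54 to 0.73). The setting without cluster 1 was among those in which it fell short, and there the count of 3 genes higher in that pair was lowered. Asns in fibroblasts ranged from 1.13 to 2.21 for APOE2 to APOE3 and from 1.11 to 1.87 for APOE4 to APOE3, both lowest at resolution 1.6. Other counts of genes past 1.5-fold moved as follows, and the cause was not tested. In smooth muscle, genes lower in APOE4 to APOE3 went from 1 to 0 with pathway genes kept among the clustering features, at resolution 0.4, with classes set by each cell's own markers, with scaling by the median gene, with totals without mitochondrial and ribosomal UMIs, with the mean of each cell's CPM, and in the alternatives added after seeing the data, with the mixed clusters or without cluster 1. Genes higher in APOE2 to APOE3 went from 1 to 2 with each cell's own markers and with the mean of each cell's CPM, and to 0 without cluster 2, also added. In fibroblasts, genes higher in APOE2 to APOE3 went from 2 to 1 with pathway genes kept, at both resolutions (0.4 and 1.6), with own markers and without the highest Scrublet scores, and genes lower in APOE4 to APOE2 went from 1 to 0 with pathway genes kept, at resolution 1.6 and with own markers, and to 2 without the highest Scrublet scores, where genes higher in APOE4 to APOE3 went from 2 to 1. In macrophages, genes higher in APOE4 to APOE2 went from 1 to 2 with pathway genes kept, at resolution 1.6, with median gene scaling and without the highest Scrublet scores, which also took APOE4 to APOE3 from 0 to 1, and the mean of each cell's CPM gave 1 higher in APOE2 to APOE3 and, in APOE4 to APOE2, 0 higher and 1 lower.

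A fold of 1.25 gave in smooth muscle 4 higher and 2 lower in APOE4 to APOE3 and 4 higher in APOE4 to APOE2, in fibroblasts 3 higher in APOE2 to APOE3, 5 in APOE4 to APOE3 and 2 in APOE4 to APOE2, and in macrophages 1 higher in APOE2 to APOE3, 3 in APOE4 to APOE3, and 2 higher with 2 lower in APOE4 to APOE2. A fold of 2 left in smooth muscle 0 in APOE2 to APOE3, 1 higher and 0 lower in APOE4 to APOE3 and 1 higher and 1 lower in APOE4 to APOE2, in fibroblasts 1, 1 and 0, and in macrophages 0. A minimum of 20 UMIs gave 2 lower in fibroblasts and 2 higher in macrophages in APOE4 to APOE2. A minimum of 500 UMIs, under which fall Trib3 and Chac1 in smooth muscle and Asns and Trib3 in fibroblasts, gave in smooth muscle 0 higher in APOE2 to APOE3, 0 lower in APOE4 to APOE3 and 0 lower in APOE4 to APOE2, and in fibroblasts 0 and 1 higher in the pairs with APOE3 and 0 lower in APOE4 to APOE2. The share of all genes is not given here for these folds and UMI minimums or for the alternatives above. Their counts thus cannot be weighed against a background. No paired analysis was possible because each genotype had 1 library, for which reason no replicate could be left out either. Depth limits Trib3, Chac1 and Asns in macrophages and all values of the smallest classes.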

Other observations

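The mixed clusters 11, 14 and 15, which kept smooth muscle markers while markers of fibroblasts, endothelium or red cells were raised, held 760 APOE2, 792 APOE3 and 340 APOE4 cells and were left out of the classes compared, except in the alternative that adds them to smooth muscle. Asns there was at 3.71 CPM in APOE2 (interval 2.87 to 4.72), 2.03 in APOE3 (1.32 to 2.97) and 10.4 in APOE4 (7.30 to 14.4), the same high library as in smooth muscle. Dnajb9 was at 44.8, 56.9 and 70.6 CPM, and Atf4 at 102, 119 and 133 CPM. Chac1 was at 1.74 CPM in APOE2 (31 UMIs, 1.18 to 2.47), 0.624 in APOE3 (8 UMIs, 0.269 to 1.23) and 1.16 in APOE4 (4 UMIs, 0.316 to 2.97), with overlapping intervals.

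Erythroid markers in the macrophage class summed to 1709 CPM in APOE2, 15.5 in APOE3 and 114 in APOE4. Their part in the macrophage levels was not tested.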
